A study of Mus musculus with 24 samples.

Results

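The genes described here are the bone morphogenetic protein (BMP) ligands Bmp2, Bmp4 and Bmp7, the secreted BMP antagonist Nog (noggin), the type I receptors Bmpr1a and Bmpr1b, and the target genes Id1, Id2, Id3 and Id4. They were taken by symbol from the deposited expression matrix, which gave all 10 a row among its 23947 gene symbols. The values come from newborn (P1) lens fibers, newborn (P1) lens epithelium and forebrain dissected from embryos at E12.5, each from CD-1 mice with no treatment named and each measured in 1 RNA-seq library of total RNA. CD-1 is an outbred strain, no mutant or transgene is named in the labels of any of the 3 groups, and the sources used here do not give the number of animals behind a library. The series of 24 samples also holds ChIP-seq and FAIRE libraries made to study the transcription factor Pax6, which were not used here. With 1 library per group no difference could be set against a spread between replicates, so no p-value is given and every comparison is between these libraries. Tissue and age cannot be told apart between lens and forebrain.

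BMPs are secreted dimers of the TGF-beta family that bring type I and type II receptor kinases together. The type I receptor then phosphorylates Smad1 and Smad5, which enter the nucleus with Smad4 and switch on target genes, among which the Id genes respond most widely. Id proteins are helix-loop-helix proteins without a DNA-binding region, and they hold E proteins in dimers that cannot bind DNA. In the eye, Bmp4 and Bmp7 are known for their part in lens induction, and BMP signalling continues in the growing lens. In the embryonic forebrain, BMPs made at the dorsal midline pattern the tissue, and noggin limits how far they act.

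Levels are given in RPKM, reads scaled to transcript length and library size, so they can be set side by side between genes of a library. The deposited RPKM summed to 2603161 in fibers, 587475 in epithelium and 598020 in forebrain. The 16 crystallins, the refractive proteins of the lens, took 85.5% of all protein-coding RPKM in fibers, 9.07% in epithelium and 0.0411% in forebrain. The labelled tissues were checked against marker genes. All 7 lens fiber markers were at 731.1 RPKM or more in fibers, and in epithelium they ran between 10.6 and 704.6 RPKM. The 5 lens epithelium markers summed to 148.0 RPKM in fibers, 459.0 RPKM in epithelium and 34.8 RPKM in forebrain. Each library thus held the markers of its label, and fiber markers were present in the epithelial library too. The epithelial transcription factor Foxe3 was at 0.433 RPKM in fibers and 19.4 RPKM in epithelium, and it was listed at 0 in forebrain. Pitx3, of the same marker list, was not higher in epithelium as deposited (37.3 RPKM in fibers, 34.99 RPKM in epithelium). Cdh1, Pax6 and Trpm3 were higher in epithelium than in fibers, though Trpm3 was still at 85.3 RPKM in fibers. Pax6 was also higher in forebrain (28.1 RPKM) than in fibers as deposited. The 6 forebrain markers summed to 4.18 RPKM in fibers, 16.1 RPKM in epithelium and 603.4 RPKM in forebrain. Markers of other tissues were present in epithelium. The 7 vessel endothelium markers summed to 34.4 RPKM in fibers, 124.1 RPKM in epithelium and 43.6 RPKM in forebrain, with Cdh5 and Esam listed at 0 in fibers. Egfl7 alone gave 32.6 RPKM of the fiber sum. The 7 markers of pigment cells and ciliary epithelium summed to 9.72 RPKM in fibers, 71.0 RPKM in epithelium and 9.43 RPKM in forebrain, with Tyr, Mlana and Otx1 listed at 0 in fibers. Mitf alone gave 9.57 RPKM of this fiber sum, and it was at 7.34 RPKM in epithelium. The 5 retina markers summed to 1.14 RPKM in fibers, 28.5 RPKM in epithelium and 0.310 RPKM in forebrain. The blood and mesenchyme marker sums, in contrast, were highest in forebrain. The 6 blood markers summed to 6.26 RPKM in fibers, 345.5 RPKM in epithelium and 5655 RPKM in forebrain, and the 6 mesenchyme markers to 2.80, 58.6 and 70.3 RPKM. Hbb-y gave 4223 RPKM of the forebrain blood sum, while Hbb-b1 was higher in epithelium (172.8 RPKM) than in forebrain (153.2 RPKM). Pdgfra gave 52.9 RPKM of the epithelial mesenchyme sum and was at 2.89 RPKM in forebrain, whereas the other mesenchyme markers were all higher in forebrain than in epithelium. Myeloid markers (5 genes) summed to 0.802, 7.22 and 7.28 RPKM in fibers, epithelium and forebrain. Cornea and surface epithelium markers (5 genes) summed to 0.0936, 0.388 and 0.279 RPKM in the same order. In these bulk samples, fewer cells of a type and less RNA per cell cannot be told apart.

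Bmp4 and Bmp7 were highest in lens epithelium, and of the 3 ligands Bmp7 was the one with appreciable RNA in fibers. Bmp4 stood at 0.211 RPKM in fibers, 20.9 RPKM in epithelium and 1.28 RPKM in forebrain. Bmp7 stood at 6.63 RPKM in fibers, 23.8 RPKM in epithelium and 2.77 RPKM in forebrain. Bmp2 was listed at 0 in fibers, at 1.19 RPKM in epithelium and at 0.113 RPKM in forebrain. Epithelium thus held the highest level of each ligand. On the plain RPKM scale, Bmp4 in epithelium was 16.3-fold its forebrain level, and Bmp7 in epithelium was 8.60-fold its forebrain level. Against epithelium, Bmp4 in fibers was 99.0-fold lower, a steeper difference than the 3.59-fold lower level of Bmp7. The size of the Bmp4 fold is uncertain, since it rests on 0.211 RPKM in fibers at an unknown depth. Its log2 ratio was -6.08 with a pseudocount of 0.1 RPKM and -2.32 with 5 RPKM. The fiber level of Bmp7 was 2.39-fold that of forebrain as deposited, but lower than forebrain once the libraries were scaled to equal sums of RPKM over all genes (log2 ratio 1.02 as deposited, -0.70 after scaling).

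The make-up of the ligand pool, which does not depend on the scaling of a library, also differed. The summed RPKM of Bmp2, Bmp4 and Bmp7 was 6.84 in fibers, 45.9 in epithelium and 4.17 in forebrain. Bmp7 made up 96.9% of this sum in fibers, 51.8% in epithelium and 66.5% in forebrain. Bmp4 made up 3.09% in fibers, 45.6% in epithelium and 30.8% in forebrain. Epithelium was thus the library in which both ligands stood at similar levels. The pigment and ciliary, retina and endothelium marker sums given above were also highest in epithelium, and their part in the ligand levels was not tested. A Bmp4 pseudogene is annotated in RefSeq and the sources used here do not say how reads shared between copies were treated, so the Bmp4 level is uncertain in that respect.

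Noggin RNA was found in forebrain and hardly in lens. Nog was listed at 0 in fibers, at 0.0835 RPKM in epithelium and at 3.64 RPKM in forebrain. The epithelial level was 43.5-fold below that of forebrain, at a depth that is unknown. The summed RPKM of the 3 ligands was 550.0 times that of Nog in epithelium and 1.15 times that of Nog in forebrain. Forebrain therefore held the summed RNA of these 3 ligands and noggin RNA at near equal levels, and no such quotient exists for fibers. Further BMP ligands, such as Bmp5 at 1.98 RPKM in forebrain, are not in this sum.

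**Figure D1:**
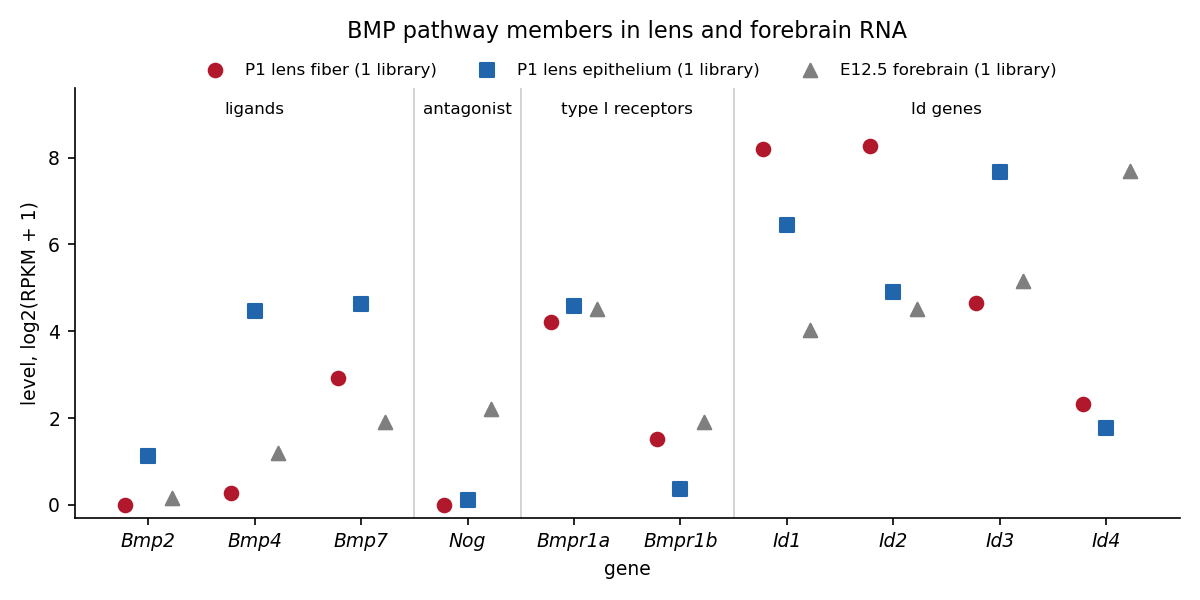
Level of each of the 10 genes as log2(RPKM + 1), with 1 point per library (circle, P1 lens fiber; square, P1 lens epithelium; triangle, E12.5 forebrain) and no error bars since each group held 1 library. Bmp4 and Bmp7 are highest in epithelium, Bmpr1a as deposited is at 17.6 to 22.8 RPKM in all 3 libraries, and each of the 3 libraries is topped by other Id genes.

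Of the 2 type I receptor genes among the 10, Bmpr1a held most of the RNA, at similar levels in epithelium and forebrain. Bmpr1a was at 17.6 RPKM in fibers, 22.8 RPKM in epithelium and 22.0 RPKM in forebrain, and the log2 ratio of epithelium to forebrain was 0.05. In fibers its level relative to the other libraries depends on the scaling, with a log2 ratio over epithelium of -0.35 as deposited, -2.39 with equal sums over all genes and -3.34 with equal sums over protein-coding genes. Over forebrain the same values were -0.30, -2.31 and -3.16. Bmpr1b, the other of these 2, was at 1.87 RPKM in fibers, 0.287 RPKM in epithelium and 2.73 RPKM in forebrain. It was thus lowest in epithelium, where the ligands were highest. In epithelium Bmpr1b was 9.51-fold below its forebrain level. Bmpr1b in fibers was 6.52-fold its epithelial level as deposited, with a log2 ratio of 1.16 that passed through 0.24 with equal sums over all genes to -0.20 with equal sums over protein-coding genes. The quotient of Bmpr1a to Bmpr1b, free of the scaling, was 9.42 in fibers, 79.4 in epithelium and 8.06 in forebrain. Its size in epithelium is uncertain, since it rests on 0.287 RPKM of Bmpr1b at an unknown depth. Fibers and forebrain were close in this quotient and epithelium stood apart, with Bmpr1a at 98.8% of the sum of Bmpr1a and Bmpr1b. That sum leaves out the type I receptor genes Acvr1 and Acvrl1. In epithelium Acvr1 was at 1.56 RPKM and Acvrl1 at 4.66 RPKM, both above Bmpr1b, whereas in fibers and forebrain both were below it.

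Each library was led by other Id genes. Id1 was at 294.3 RPKM in fibers, 85.9 RPKM in epithelium and 15.3 RPKM in forebrain. Id2 was at 307.4 RPKM in fibers, 28.8 RPKM in epithelium and 21.8 RPKM in forebrain. Both were thus highest in fibers as deposited, but Id1 no longer above epithelium with equal sums over all genes, and Id2 was 1.32-fold higher in epithelium than in forebrain. Id3 was at 24.3 RPKM in fibers, 204.3 RPKM in epithelium and 34.5 RPKM in forebrain, and so had its peak in epithelium. Id4, known from neural progenitors of the embryonic forebrain, was at 4.01 RPKM in fibers, 2.40 RPKM in epithelium and 204.7 RPKM in forebrain, and so was the forebrain gene of the family. Id4 was 51.0-fold lower in fibers and 85.3-fold lower in epithelium than in forebrain, the widest differences among the 10 genes against forebrain where both libraries had a value above 0.

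The leading Id genes were among the most abundant messages of their libraries. Among protein-coding genes of at least 1 RPKM, Id2 held rank 152 and Id1 rank 158 of 9344 in fibers. Id3 held rank 125 of 11201 in epithelium, with Id1 at rank 374. Id4 held rank 128 of 10985 in forebrain, where Id1 held rank 2982. At the other end, Id4 held rank 6345 in fibers and rank 9519 in epithelium. The Id gene that led each library thus stood within the top 1.63% of these genes in fibers, the top 1.12% in epithelium and the top 1.17% in forebrain.

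The summed RPKM of the Id genes differed less than the single genes did, as deposited at 630.1 in fibers, 321.4 in epithelium and 276.3 in forebrain. Id1 made up 46.7% and Id2 48.8% of the sum in fibers. In epithelium Id3 made up 63.6% and Id1 26.7%. In forebrain Id4 made up 74.1%, Id3 12.47% and Id2 7.89%. Fibers were thus shared between Id1 and Id2, whereas 1 gene made up most of the sum in epithelium and in forebrain. The quotient of the highest to the lowest Id gene was 76.6 in fibers, 85.1 in epithelium and 13.4 in forebrain, so the lowest Id gene was nearest to the highest in forebrain, although 1 gene also took its largest share there.

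**Figure D2:**
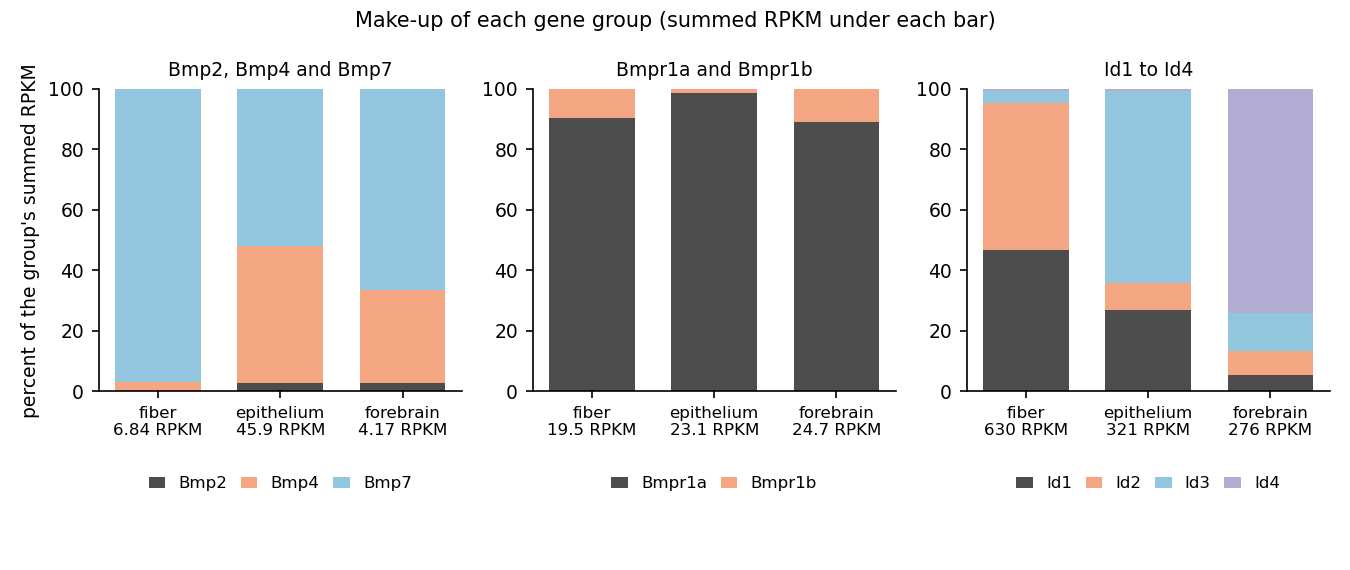
Stacked bars of the percent that each gene gives to the summed RPKM of its group in fiber, epithelium and forebrain (1 library each, sums printed under the bars). The groups are the ligands, the type I receptors and the Id genes among the 10 genes, so the receptor bar holds Bmpr1a and Bmpr1b only. Bmp7 fills 96.9% of the fiber ligand bar, Bmpr1a fills 98.8% of the epithelial receptor bar, and the Id bars are filled mainly by Id1 and Id2 in fibers, Id3 in epithelium and Id4 in forebrain.

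Since Id2, Id3 and Id4 each peaked in another library, the promoter windows of these genes are shown for comparison. They are the 250 bases before the RefSeq gene start (GRCm38.p6), 5′ to 3′ on the strand of the gene. The RefSeq promoter table matched 6 of the 10 genes, Bmp4, Bmpr1a, Bmpr1b, Id2, Id3 and Id4. Capitals mark GGCGCC, a GC-rich element to which BMP-activated Smads can bind, and CAGAC or its reverse complement GTCTG, the Smad binding element. The Id2 window lies at chr12:25096093-25096342 on the minus strand, the Id3 window at chr4:136143572-136143821 on the plus strand and the Id4 window at chr13:48260866-48261115 on the plus strand.
Id2: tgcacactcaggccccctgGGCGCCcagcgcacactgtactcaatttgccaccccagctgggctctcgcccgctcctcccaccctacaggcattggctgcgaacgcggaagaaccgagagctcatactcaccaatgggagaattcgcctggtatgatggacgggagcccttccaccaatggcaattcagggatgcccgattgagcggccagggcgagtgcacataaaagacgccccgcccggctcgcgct
Id3: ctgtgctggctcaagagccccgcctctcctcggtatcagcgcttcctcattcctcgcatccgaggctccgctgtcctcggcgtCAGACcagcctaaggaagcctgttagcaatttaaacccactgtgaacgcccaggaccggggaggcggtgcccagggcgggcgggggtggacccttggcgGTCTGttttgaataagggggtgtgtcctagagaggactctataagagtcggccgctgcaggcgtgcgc
Id4: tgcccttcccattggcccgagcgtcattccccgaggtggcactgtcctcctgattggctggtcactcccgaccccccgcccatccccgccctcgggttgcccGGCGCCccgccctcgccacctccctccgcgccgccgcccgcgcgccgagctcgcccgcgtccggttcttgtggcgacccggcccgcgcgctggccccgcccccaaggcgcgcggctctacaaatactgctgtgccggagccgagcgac
The Id2 and Id4 windows each held 1 GGCGCC and no CAGAC. The Id3 window held 2 CAGAC, 1 on each strand, and no GGCGCC. Of the E-box CANNTG, to which E protein dimers bind, the Id2 window held 1 match and the Id3 and Id4 windows held 0. No match overlapped another in these windows. Among all 32851 windows of this length in the table, searched on both strands, 9.59% held GGCGCC, 42.2% held CAGAC and 66.2% held CANNTG. The GC content was 62.8% in the Id2 window, 62.8% in the Id3 window and 75.6% in the Id4 window, against a median of 52.4% over all windows, and GC-rich windows hold GC-rich motifs more often. A match of letters is a description of the sequence and no measured binding site.

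As deposited, the partners of the Id proteins followed another order than the Id sum, whose fiber level relative to the other libraries depends on the scaling. The E protein genes Tcf3, Tcf4 and Tcf12 summed to 19.2 RPKM in fibers, 49.9 RPKM in epithelium and 107.3 RPKM in forebrain. Tcf4 was at 3.34 RPKM in fibers, 11.5 RPKM in epithelium and 40.8 RPKM in forebrain. Tcf12 was at 5.64 RPKM in fibers, 16.3 RPKM in epithelium and 29.0 RPKM in forebrain, and Tcf3 was at 10.2, 22.2 and 37.5 RPKM in the same libraries. All 3 thus had the same order, lowest in fibers and highest in forebrain. The quotient of the Id sum to the E protein sum within a library was 32.9 in fibers, 6.44 in epithelium and 2.58 in forebrain. It is a quotient of RNA levels and says nothing of protein.

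For lens epithelium over forebrain, Bmp4, Bmp7, Id1 and Id3 were higher and Nog, Bmpr1b and Id4 were lower. Genes were compared by log2((RPKM + 1)/(RPKM + 1)) where either library had at least 1 RPKM, and called at a log2 ratio of at least 1 in size (2-fold on this scale, which understates the difference of low genes). Of the 10 genes, all were compared, 4 were called higher and 3 lower, where 13.7% of all 12619 genes compared were called higher and 11.9% lower. At 4-fold, 4 were higher and 2 lower, against a background of 4.68% and 3.25%. The log2 ratios were 3.26 for Bmp4, 2.72 for Bmp7, 2.53 for Id3 and 2.41 for Id1. Those of the lower genes were -5.92 for Id4, -2.10 for Nog and -1.53 for Bmpr1b. Except for Bmpr1b, they lay outside the range between percentile 5 (-1.67) and percentile 95 (1.93) of all genes compared. The genes that were not called were Bmp2 with 0.97 (1.02 when centred on the median, past the call), Id2 with 0.38 and Bmpr1a. The median over the 10 genes was 0.68, against -0.03 over all genes compared.

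For lens fiber over forebrain, Id1, Id2 and Bmp7 were higher and Id4 and Nog were lower as deposited, Bmp7 with the change of direction given above. Of the 9 genes compared (Bmp2 was under 1 RPKM in both libraries), 3 were called higher and 2 lower, against 15.9% and 31.6% of all 12205 genes compared. At 4-fold, 2 were higher and 2 lower, against 6.37% and 11.4%. The log2 ratio was 4.18 for Id1, 3.76 for Id2 and -5.36 for Id4, all outside the range between percentile 5 (-2.92) and percentile 95 (2.33). Nog was called lower with the fiber library listed at 0. The uncalled genes had log2 ratios of -0.91 for Bmp4, -0.49 for Id3, -0.38 for Bmpr1b and -0.30 for Bmpr1a. The median over the 9 genes was -0.38, against -0.41 over all genes compared. With equal sums over all genes 6 of the 9 were lower, but that scaling shifted fiber over forebrain by -2.12. The share of all genes lower under it is not given, so this count has no background.

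For lens fiber over lens epithelium, Id1, Id2 and Bmpr1b were higher and Bmp2, Bmp4, Bmp7 and Id3 were lower as deposited, with Id1 (-0.37 with equal sums over all genes) and Bmpr1b changing direction under another scaling. Of the 9 genes compared (Nog was under 1 RPKM in both libraries), 3 were called higher and 4 lower, against 11.4% and 28.3% of all 12090 genes compared. At 4-fold, 1 was higher and 2 were lower, against 3.75% and 8.12%. The log2 ratio was 3.37 for Id2, -4.18 for Bmp4 and -3.02 for Id3, which are the genes past 4-fold. It was 1.76 for Id1 and -1.70 for Bmp7, and Bmp2 was called lower with the fiber library listed at 0. Within the lens the ligands and Id3 were thus lower in fibers than in epithelium while Id2 was higher. Id4, at 0.56, was not called, and its ratio turned to -1.06 with equal sums over all genes. The median over the 9 genes was -0.35, against -0.42 over all genes compared. The 3 comparisons share libraries, so their ratios are not independent of one another.

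**Figure D3:**
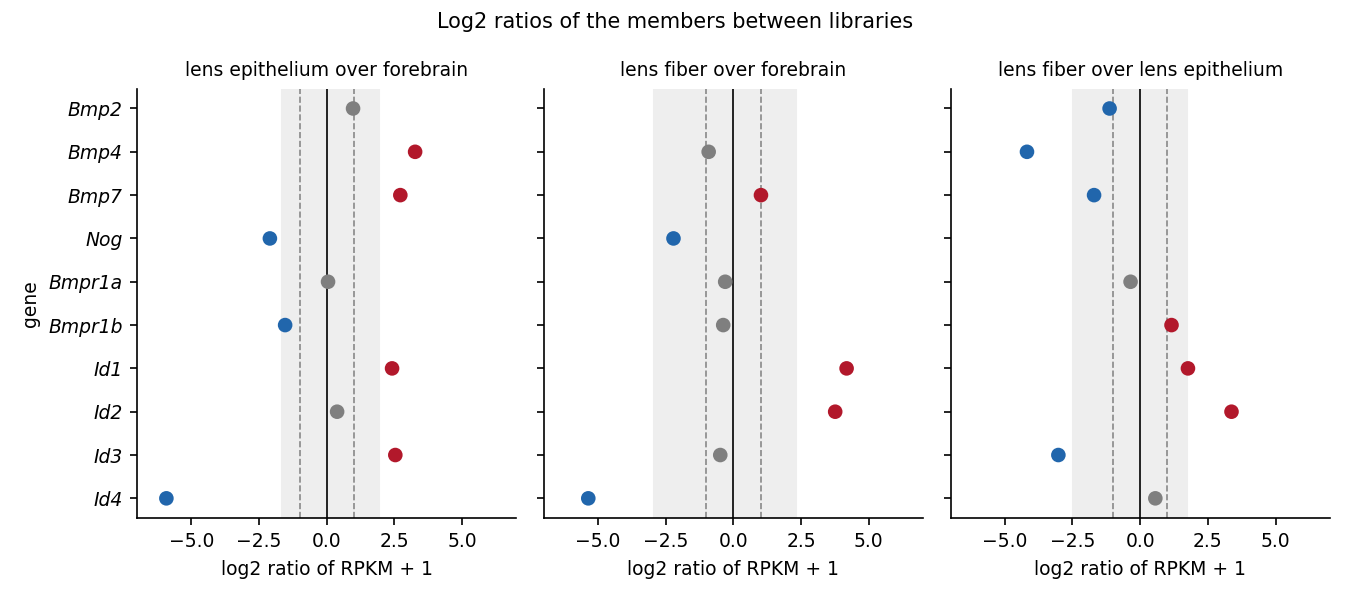
Log2 ratio of RPKM + 1 for each gene in the 3 comparisons (points; red, at least 2-fold higher; blue, at least 2-fold lower; gray, neither), with dashed lines at 2-fold and a gray band between percentiles 5 and 95 of all genes compared. Id4 lies far to the left of the band in both comparisons with forebrain (-5.92 and -5.36), and the fiber calls of Id1, Bmp7 and Bmpr1b change direction in scalings described in the text.

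The fiber ratios depend on how the libraries are scaled, with crystallins at 85.5% of the protein-coding RPKM of fibers. Among genes of at least 1 RPKM in both libraries, the median log2 ratio was -0.20 for fiber over epithelium, -0.19 for fiber over forebrain and -0.05 for epithelium over forebrain. Scaling to equal sums of RPKM over all genes shifted fiber over epithelium by -2.15, whereas equal sums without crystallins shifted it by -0.50. Under equal sums over all genes, Id2 kept a log2 ratio of 1.26 over epithelium and 1.67 over forebrain. Id1 kept 2.11 over forebrain, but turned to -0.37 over epithelium. With equal sums over protein-coding genes, these values were 0.28 and 0.80 for Id2, and 1.24 and -1.35 for Id1. Every equal-sum scaling shifted the fiber ratios down, so genes already lower in fibers as deposited, such as Bmp4 and Id3 over epithelium or Id4 over forebrain, could not change direction under them.

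**Figure D4:**
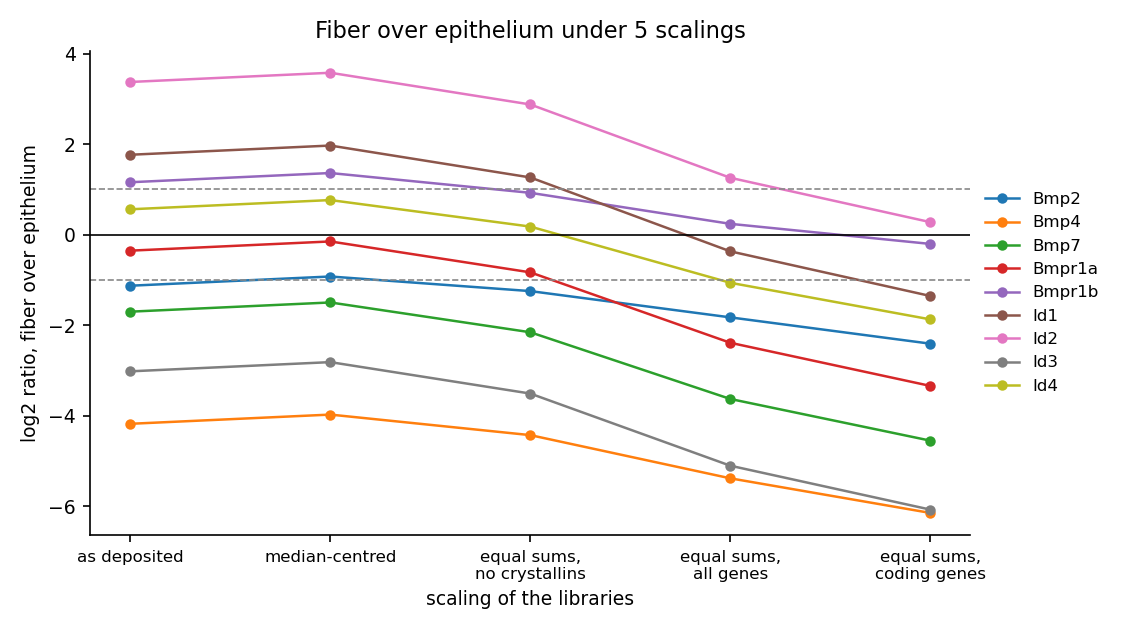
Log2 ratio of fiber over epithelium (y axis) for the 9 genes compared, under the deposited values and 4 other scalings of the libraries (x axis), with dashed lines at 2-fold and 1 library per group. Id2 is above 0 in each of these scalings, Id1, Id4 and Bmpr1b cross 0, and Bmp2, Bmp4, Bmp7, Bmpr1a and Id3 are below 0 throughout; the equal-sum scalings move every fiber ratio down.

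Other BMP antagonists and modulators, unlike noggin, were often higher in epithelium than in forebrain. Of the 18 genes in that list, 12 were compared for epithelium over forebrain, of which 7 were called higher and 0 lower, against 13.7% and 11.9% of all genes, with a median of 1.90. The pigment and ciliary, retina and endothelium marker sums were highest in epithelium too, and their part in this was not tested. Grem1, which codes for the secreted antagonist gremlin, was at 0.264 RPKM in fibers, 18.4 RPKM in epithelium and 0.168 RPKM in forebrain, and its log2 ratio over forebrain was 4.05 in epithelium. Fstl1, a secreted follistatin-like protein, was at 74.5 RPKM in fibers, 271.4 RPKM in epithelium and 25.3 RPKM in forebrain. Epithelium thus held little noggin but much Grem1 and Fstl1 RNA. Fstl3 was at 0.963 RPKM in fibers, 10.04 RPKM in epithelium and 0.148 RPKM in forebrain, and Nbl1, of the DAN family of antagonists, was at 0.795, 12.7 and 2.05 RPKM in the same libraries.

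In fibers the modulators had another profile. For fiber over epithelium 11 of the list were compared, 1 was higher and 8 were lower, against 11.4% and 28.3% of all genes, with a median of -2.49. The higher gene was Bmper, an extracellular BMP-binding modulator, at 51.4 RPKM in fibers, 5.66 RPKM in epithelium and 4.56 RPKM in forebrain. Its log2 ratio over epithelium was 2.97 as deposited and 0.98 with equal sums over all genes. Over forebrain 7 were compared, 3 were higher and 1 was lower, against 15.9% and 31.6% of all genes, with a median of -0.24. Of the 3 higher genes, Fstl1 (1.52) and Bmp1 (1.63, named after its value was seen) turned to -0.55 and -0.38 with equal sums over all genes, whereas Bmper kept 1.29.

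Of 15 further BMP and GDF ligands, 3 had at least 1 RPKM in a library. Gdf11, which signals mainly through the activin branch and is named here after its values were seen, was at 6.73 RPKM in fibers, 8.30 RPKM in epithelium and 8.29 RPKM in forebrain. In forebrain it thus exceeded the summed level of Bmp2, Bmp4 and Bmp7 (4.17 RPKM), and in fibers it was close to that sum (6.84 RPKM). For epithelium over forebrain 3 were compared and none was called, with a median of 0.00. Bmp5, a ligand of the Bmp7 group, was listed at 0 in fibers, at 0.645 RPKM in epithelium and at 1.98 RPKM in forebrain. Gdf1 was at 0.404 RPKM in fibers, 2.88 RPKM in epithelium and 1.13 RPKM in forebrain. In fibers 1 of 3 was lower than in forebrain (median -0.60), and 1 of 2 was lower than in epithelium (median -0.87). Of all genes compared, 31.6% and 28.3% were lower.

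Among other receptors and co-receptors, 8 of the 10 listed genes were compared for fiber over epithelium, 1 was higher and 6 were lower, with a median of -1.20, where 28.3% of all genes were lower. Over forebrain 9 were compared, 0 were higher and 5 were lower, with a median of -1.09, where 31.6% of all genes were lower. Centring on the median ratio left 4 lower over epithelium and 3 lower over forebrain, and equal sums over all genes gave 7 and 9. The shares of all genes lower under these scalings are not given, and equal sums move fiber ratios down. For epithelium over forebrain 9 were compared, 3 were higher and 2 lower, against 13.7% and 11.9% of all genes, with a median of 0.06. The pseudoreceptor gene Bambi, whose product lacks a kinase domain and dampens signalling, was at 0.395 RPKM in fibers, 5.38 RPKM in epithelium and 1.16 RPKM in forebrain. Rgmb, a co-receptor that binds BMPs, was at 1.23 RPKM in fibers, 4.23 RPKM in epithelium and 9.96 RPKM in forebrain, and Rgma was at 0.0436, 0.534 and 4.12 RPKM. Rgma and Rgmb were thus both lowest in fibers and highest in forebrain. Eng and Acvrl1, receptors best known in endothelium, were highest in epithelium, where the endothelium markers were also highest, and the part of endothelium in this was not tested. Eng was listed at 0 in fibers and stood at 6.18 RPKM in epithelium and 1.42 RPKM in forebrain. Acvrl1 was at 0.553 RPKM in fibers, 4.66 RPKM in epithelium and 1.62 RPKM in forebrain. The 1 higher gene in fibers, the type II receptor Acvr2b, named after its value was seen, had a log2 ratio of 1.21 over epithelium that turned to -0.74 with equal sums over all genes.

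Inside the cell, the inhibitory Smads were highest in epithelium. Smad6 was at 3.97 RPKM in fibers, 13.4 RPKM in epithelium and 4.53 RPKM in forebrain. Smad7 was at 2.35 RPKM in fibers, 4.55 RPKM in epithelium and 1.49 RPKM in forebrain. Both are known as feedback targets of the pathway, and both were called higher for epithelium over forebrain, at 1.38 and 1.15. The pigment and ciliary, retina and endothelium marker sums were highest in epithelium too, and their part in the Smad6 and Smad7 levels was not tested. Smad5, which carries the signal, was at 6.96 RPKM in fibers, 14.5 RPKM in epithelium and 20.8 RPKM in forebrain. Smad1, which also carries it and is named here after its values were seen, was at 10.4, 5.85 and 13.3 RPKM in the same libraries. Smad1 was thus lowest in epithelium as deposited, and its log2 ratio for epithelium over forebrain was -1.06. With equal sums over all genes, Smad1 was lower in fibers than in epithelium. The ubiquitin ligase gene Smurf2 was at 5.76 RPKM in fibers, 13.1 RPKM in epithelium and 15.2 RPKM in forebrain, and Smurf1 was at 1.72, 4.65 and 4.72 RPKM. Of the 7 genes of this list of 8 that were compared, 2 were higher and 1 lower for epithelium over forebrain (median -0.20). Of all genes compared, 13.7% were higher and 11.9% lower there. In fibers over forebrain 0 were higher and 3 lower (median -0.47), and for fiber over epithelium 0 were higher and 3 lower (median -0.96), where 31.6% and 28.3% of all genes were lower. Centring left 2 and 1 lower, and equal sums over all genes gave 6 and 7, with no share of all genes given for these scalings.

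Most other genes known to respond to BMP had their highest level in epithelium. For epithelium over forebrain 7 of the 10 listed genes were compared, 3 were higher and 1 was lower, with a median of 0.92, against 13.7% higher and 11.9% lower over all genes. The homeobox gene Msx1 was at 1.01 RPKM in fibers, 9.65 RPKM in epithelium and 4.61 RPKM in forebrain. Msx2 was at 1.39 RPKM in fibers, 3.93 RPKM in epithelium and 0.874 RPKM in forebrain, and the T-box gene Tbx2 was at 0.602, 4.04 and 0.451 RPKM. These 3 genes thus peaked in epithelium, as Bmp4, Bmp7 and Id3 did. The pigment and ciliary (71.0 RPKM), retina (28.5 RPKM) and endothelium (124.1 RPKM) marker sums also peaked there, and their part in these levels was not tested. The repressor gene Hey1 was at 9.20 RPKM in fibers, 29.2 RPKM in epithelium and 23.2 RPKM in forebrain. Dlx5, also a marker of ventral forebrain neurons, was listed at 0 in fibers and in epithelium and stood at 2.08 RPKM in forebrain. For fiber over epithelium 6 were compared, 0 were higher and 4 lower, with a median of -1.30, where 28.3% of all genes were lower. Over forebrain 5 were compared in fibers, 0 were higher and 3 lower, with a median of -1.25, where 31.6% of all genes were lower. No response gene of this list was thus called higher in fibers, unlike Id1 and Id2 as deposited.

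**Figure D5:**
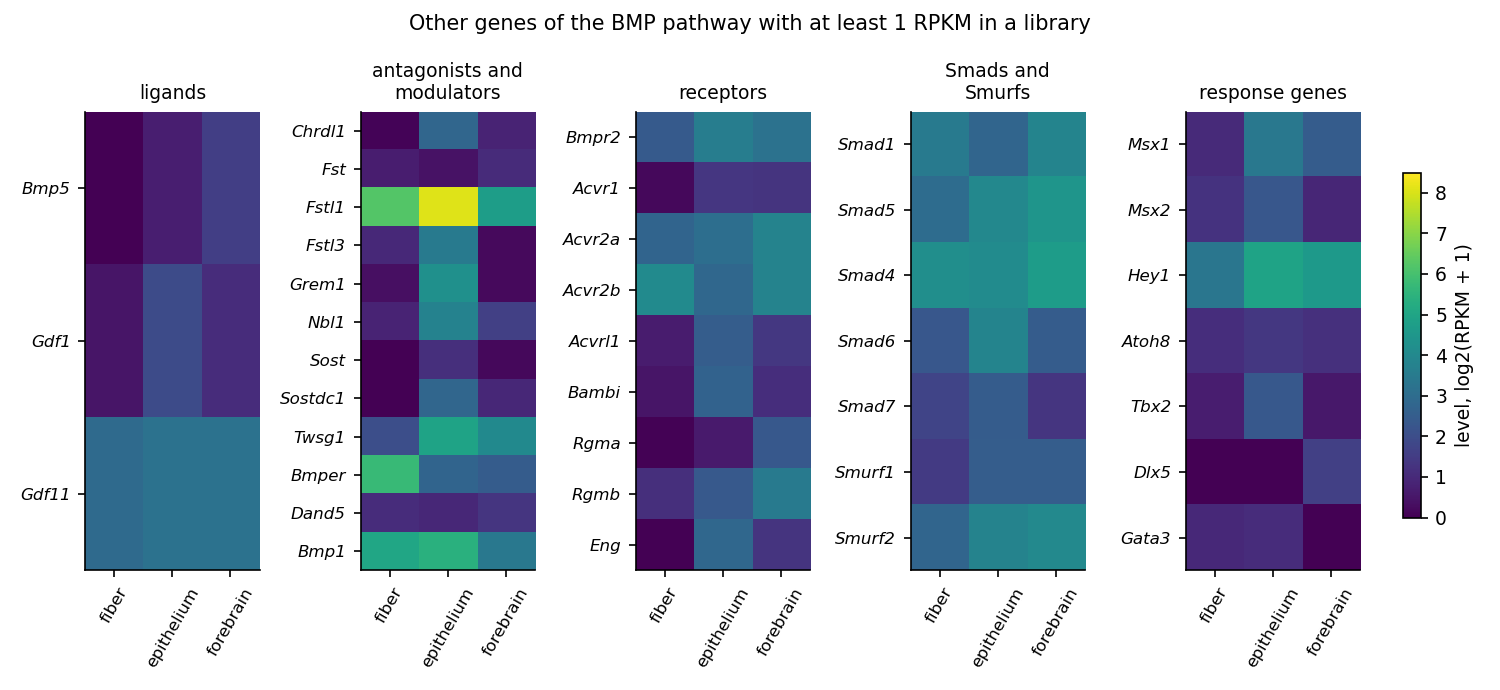
Heat map of the level, log2(RPKM + 1), of the pathway genes beside the 10 described that reached 1 RPKM in a library, in columns for fiber, epithelium and forebrain (1 library each). Across the 3 columns, Fstl1 (271.4 RPKM), Grem1, Smad6 and Msx1 are each brightest in epithelium, and Bmper is brightest in fiber (51.4 RPKM).

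The genes nearest to each of the 10 in level were found by Euclidean distance over log2(RPKM + 1) in the 3 libraries, among 12339 protein-coding genes. Bmpr1a had close neighbours, Vps41 at a distance of 0.0806 and Traf7 at 0.0808, both also near even across the libraries. Nog was nearest to Hecw1 (0.0524) and Pou3f1 (0.0759), and Bmp4 to Hsd17b11 (0.0905) and Matn2 (0.344). The 4 Id genes, and Bmp7 with them, lay farther from their nearest genes than these did. Id3 was nearest to Atp1b3 (0.382) and Hif1a (0.593), Id2 to Carhsp1 (0.349) and Dbnl (0.542), and Id1 to Wnt7b (0.604) and Ank2 (0.708). Id4 was nearest to Nsg2 (0.696) and then to the neuronal tubulin gene Tubb3 at 1.59, the widest gap among the nearest pairs. Bmp7 was nearest to Dse (0.487) and Gulp1 (0.533), Bmpr1b to Mapk10 (0.144) and Ptprn2 (0.183), and Bmp2 to Art3 (0.00607) and Frmpd4 (0.0309). With 3 points per gene such likeness is a description of these libraries.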

How the data were processed

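RNA was measured in 3 libraries, 1 each from lens fiber, lens epithelium and forebrain, prepared with a strand-specific dUTP method per the labels' protocols. The authors deposited RPKM per gene symbol. The submitters' processing notes name mm9, Cufflinks (version 2), Cuffdiff and TopHat2 (version 2) without their roles. The sources used here do not give the annotation, the use of strand in counting, how multiply matching reads were counted, or whether libraries were scaled to each other. The depth is unknown, since low RPKM values fell on no common steps, and no interval or floor is given.

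Ratios were log2((RPKM + 1)/(RPKM + 1)), with a pseudocount of 1 RPKM, over genes of at least 1 RPKM in either library. They were called at 2-fold, with 4-fold beside it, computed with Python 3.11.15, pandas 2.3.3 and numpy 2.4.6 and drawn with matplotlib 3.10.9. The code was checked on a copy of the epithelium library with planted fold changes and no noise. This check says nothing of the scaling between libraries or of low values. Of 23947 symbols, 23812 matched RefSeq (GRCm38.p6) by symbol or synonym, used here for naming and for gene class, and 20437 were protein coding. Beside the 10 genes, 9 lists with 101 genes were described: other ligands, receptors and co-receptors, Smads and Smurfs, antagonists and modulators, response genes, the TGF-beta and activin branch, E proteins, neural bHLH genes, and dorsal midline and choroid plexus genes. The 10 genes and the lists were chosen with earlier results of these data known. All 10 genes were named, and from each list up to 5 genes of at least 1 RPKM past 2-fold, the largest ratios first. The 2 nearest genes by level were named for each of the 10. A further 10 lists of cell type markers were summed. Alternatives changed the pseudocount, the filter, the fold and the scaling of the libraries. The scalings by protein-coding genes, and the lists under equal sums over all genes, were chosen after seeing the data.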

Additional observations from a re-analysis of the deposited data

How the results depend on the processing

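No paired analysis was possible because each group held 1 library, and for the same reason no library could be left out. The cause of the differences between settings was not tested, except that a higher pseudocount or filter shrinks or removes low genes by construction. For epithelium over forebrain, the 3 lower genes became 1 with a pseudocount of 5 RPKM and 1 with a filter of at least 5 RPKM. For fiber over forebrain, the 3 higher genes became 1 with equal sums over protein-coding genes. The 2 lower genes became 1 with a pseudocount of 5 RPKM, 1 with the 5 RPKM filter, 6 with equal sums over all genes and 7 with equal sums over protein-coding genes. For fiber over epithelium, the 3 higher genes became 1 at 4-fold, 1 with equal sums over all genes and 0 with equal sums over protein-coding genes, and the 4 lower genes became 2 at 4-fold and 7 with equal sums over protein-coding genes. Bmp7 turned to -0.70 and -1.45 for fiber over forebrain with equal sums over all and over protein-coding genes, Id1 to -0.37 and -1.35 for fiber over epithelium, and Bmpr1b to -0.20 for fiber over epithelium with equal sums over protein-coding genes. Of the 28 ratios, all 28 moved by less than 1.5-fold under median centring, without the filter and under both scalings without crystallins. Even so, Bmpr1b for fiber over epithelium (0.92 and 0.95) and Bmp7 for fiber over forebrain (0.67 and 0.82) were below the 2-fold call in both scalings without crystallins. Bmp2 for epithelium over forebrain passed it at 1.02 with centring, 1.08 and 1.12 without crystallins, 1.52 with equal sums over all genes and 1.95 with equal sums over protein-coding genes, so 5 genes were higher there. Bmp4 for fiber over forebrain passed it at -1.04 without crystallins, and Bmp2 for fiber over epithelium lost it at -0.92 with centring. With a pseudocount of 0.1 RPKM 9 moved further, and with 5 RPKM 12 did. Of the listed genes for fiber over forebrain, equal sums over all genes gave 4 lower antagonists against 1 as deposited and 3 lower ligands against 1. The shares of all genes called under the alternative settings are not given, except at 4-fold, so these counts have no background. Gapdh was at 0.573, 0.199 and 0.483 RPKM in fiber, epithelium and forebrain, and Ppia at 3.40, 1.53 and 0.386 RPKM, so genes with near-identical copies can be undercounted in this matrix.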

Other observations

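Among 13 neural bHLH genes, whose products dimerise with E proteins or repress neurogenesis, 12 were compared for epithelium over forebrain, 0 were higher and 9 were lower, with a median of -1.80. Over forebrain, 12 were compared in fibers and 12 were lower (median -2.83). Against epithelium, 4 were compared in fibers and 4 were lower (median -2.53). Among all genes compared, epithelium had 13.7% called higher and 11.9% called lower than forebrain. Fibers had 31.6% called lower than forebrain and 28.3% called lower than epithelium. The proneural gene Neurog2 was at 0.106 RPKM in fibers, 0.423 RPKM in epithelium and 43.4 RPKM in forebrain, and Neurod6 was at 0.0328, 0.0490 and 38.4 RPKM. The Notch effector Hes5 was at 0.294 RPKM in fibers, 17.5 RPKM in epithelium and 63.8 RPKM in forebrain. Hes1 was at 2.002 RPKM in fibers, 29.7 RPKM in epithelium and 18.1 RPKM in forebrain, so the Hes repressors were present in epithelium with little proneural RNA. Bhlhe22 was at 0.0253 RPKM in fibers, 0.377 RPKM in epithelium and 8.997 RPKM in forebrain.

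In the dorsal midline and choroid plexus list, 10 of 11 genes were compared for epithelium over forebrain, 1 was higher and 9 were lower (median -2.04). In fibers over forebrain 1 was higher and 8 were lower of 10 (median -2.27), and for fiber over epithelium 1 was higher and 1 lower of 3 (median -0.98). Of all genes compared, 13.7% were higher and 11.9% lower for epithelium over forebrain. These shares were 15.9% and 31.6% for fiber over forebrain, and 11.4% and 28.3% for fiber over epithelium. Ttr, which codes for transthyretin, was listed at 0 in fibers, at 0.687 RPKM in epithelium and at 92.7 RPKM in forebrain. Rspo3 was at 0.0406, 0.1001 and 10.01 RPKM in fiber, epithelium and forebrain, and Otx2 at 0.05003, 1.065 and 6.80 RPKM. Against the rest of the list, the Wnt agonist gene Rspo1 was at 72.3 RPKM in fibers, 1.05 RPKM in epithelium and 8.13 RPKM in forebrain, and its log2 ratio over epithelium was 5.16 as deposited and 3.47 with equal sums over all genes. Over forebrain it was 3.01 as deposited and 0.99 with equal sums over all genes, which left 0 higher genes in that list. The folate receptor gene Folr1 was at 1.67 RPKM in fibers, 111.1 RPKM in epithelium and 1.39 RPKM in forebrain. In the TGF-beta and activin branch, 3 of 10 genes compared were higher and 0 lower for epithelium over forebrain (median 0.48). For fiber over forebrain 0 were higher and 4 lower of 8 (median -0.98), and for fiber over epithelium 0 were higher and 8 lower of 10 (median -1.55). The shares of all genes just given are the background here too. For fiber over epithelium, centring on the median ratio left 6 lower, and equal sums over all genes gave 10, with no share of all genes given for these scalings. Tgfb2 was at 3.16 RPKM in fibers, 23.2 RPKM in epithelium and 1.74 RPKM in forebrain, and thus peaked in epithelium with Bmp4 and Bmp7. The receptor gene Tgfbr1 was at 6.79 RPKM in fibers, 29.0 RPKM in epithelium and 28.0 RPKM in forebrain.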
